A study of Mus musculus with 6 samples.

Results

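Of the 103 lentiviral barcodes called in at least 10 untreated whole PB3 cells, 29 had more of these cells in cluster 5 of the authors' clustering than in any other cluster. The 26 lineages described here are those 29 without bc14-39-bc30-41529, bc14-22-bc30-18173 and bc14-55-bc30-37135, which were set aside by name. The selection named 5 lineages in all to set aside, and the other 2 were called in fewer than 10 untreated cells. The 26 lineages were thus chosen by 2 measured values, the number of untreated cells and their leading cluster, and both are given below only as a description. The lineages set aside were among the most frequent in eribulin-treated cells and were chosen with that known, so the survival of the remaining 26 is low in part by construction, and values with the 3 put back stand beside the main ones. Over the whole series 697 different barcodes were called, 506 of them in untreated whole cells. The table holds no gene expression, so cluster 5 is known here only by its number, and no marker gene could be set against it.

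PB3 is a mouse mammary tumour cell line. ERI1, ERI2, ERI3 and ERI4 cells had 1, 2, 3 and 4 rounds of 500 nM eribulin, each of 72 h with 48 h of recovery, and ERI4 nuclei had the same 4 rounds. PAC1, PAC2 and PAC3 cells had 1, 2 and 3 rounds of paclitaxel, the first of 72 h at 100 nM and later ones at 250 nM, with 48 h of recovery between the first and the second. UNT cells and UNT nuclei had no drug. ERI4 and UNT whole cells were sequenced in run 1, the conditions of 1 to 3 rounds in run 2 (hashtag-labelled and pooled, 1 library for each drug) and the nuclei in run 3. Each condition is 1 library or part of 1, so there is no spread between cultures to compare with, no test was made, and cells are not replicates. Run 2 holds no untreated library, so a ratio of one of its conditions to UNT cells mixes the run with the drug.

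A lineage barcode of this kind is a synthetic sequence that a lentivirus inserts into the genome. Daughter cells inherit it, so cells that share it descend from the same infected cell, and its share of a culture follows that family through treatment. Eribulin binds microtubule ends and stops their growth, whereas paclitaxel binds along microtubules and keeps them from disassembling, and both can arrest dividing cells in mitosis. A lineage that carries more than 1 barcode may appear under more than 1 name.

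Each barcode has 48 bases, made of a first part of 14 bases, a linker of 4 bases that was the same in all 103, and a second part of 30 bases. The sequences of 7 lineages are shown 5′ to 3′ with the first part in capitals, since the name gives the number of the first part and then that of the second. The first 4 had at least 2 times their untreated share after 1 or 2 rounds of eribulin, both over all barcodes and over the shorter list described below. The next 2 were frequent without drug and had a smaller share at each round of eribulin after the first, and the last, in no treated library, was picked out after its values were seen.
bc14-55-bc30-99383: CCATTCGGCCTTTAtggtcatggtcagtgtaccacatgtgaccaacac
bc14-1-bc30-96229: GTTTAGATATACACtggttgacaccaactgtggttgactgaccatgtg
bc14-49-bc30-30722: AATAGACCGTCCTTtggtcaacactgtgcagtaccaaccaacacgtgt
bc14-40-bc30-97696: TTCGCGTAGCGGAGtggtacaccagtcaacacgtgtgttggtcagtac
bc14-47-bc30-43673: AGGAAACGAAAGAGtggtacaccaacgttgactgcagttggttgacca
bc14-95-bc30-65716: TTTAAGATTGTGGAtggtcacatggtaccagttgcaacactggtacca
bc14-28-bc30-22697: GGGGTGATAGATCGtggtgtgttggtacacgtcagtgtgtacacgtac

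The second part was built from the 4 dinucleotides AC, CA, GT and TG in all 26 lineages, which sets its GC content at 50%. GC content of the first part lay between 28.6% and 71.4% in the 26 lineages and between 28.6% and 78.6% in all 103. The 26 lineages used 22 different first parts and 26 different second parts. Number 71 was shared by bc14-71-bc30-53519, bc14-71-bc30-94367 and bc14-71-bc30-4586, number 75 by 2 lineages and number 95 by 2. The 2 most similar sequences among the 26, bc14-75-bc30-19310 and bc14-75-bc30-79440, differed at 18 of 48 positions, against 16 for the closest pair of all 103.

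Which barcodes could be called differed between libraries, and this bears on every count below. Next to a reference of 10000000 possible barcodes, the authors deposited a shorter list of 185 barcodes with the 6 hashtags of run 2. All 1356 barcoded ERI1 cells, all 882 of ERI2 and all 2215 of ERI3 carried a barcode of this list. Barcodes outside it were called in 29.6% (27.5 to 31.8) of barcoded PAC1 cells, 40.8% (36.7 to 44.9) of PAC2 and 36.3% (34.3 to 38.3) of PAC3, in 0.61% of ERI4 cells against 36.6% (35.3 to 37.9) of UNT cells, and in 2.07% of ERI4 nuclei against 35.9% of UNT nuclei. Of the 26 lineages 19 are on the list, and 7 are not: bc14-2-bc30-62822, bc14-79-bc30-71996, bc14-37-bc30-87265, bc14-18-bc30-99249, bc14-75-bc30-19310, bc14-71-bc30-4586 and bc14-11-bc30-12158. For those 7, loss under 1 to 3 rounds of eribulin and a search that did not look for them cannot be told apart. The sources used here do not state which list each library was searched against. Depth also differed: the median was between 11266.5 and 20877 UMIs (counted RNA molecules) per whole cell, 2089 in ERI4 nuclei and 3427.5 in UNT nuclei, and 1 barcode was called in 46% to 81.9% of whole cells, in 17.2% of ERI4 nuclei and in 49.8% of UNT nuclei.

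Without drug the 26 lineages made up close to the same share of barcoded cells in both untreated libraries. They held 975 of 5087 barcoded UNT cells, 19.2% (18.1 to 20.3, exact Clopper-Pearson 95% interval, here and below for counting error only). UNT nuclei, a library the selection did not use, gave 919 of 4935, 18.6% (17.5 to 19.7), which is 0.972 times the share in cells (0.887 to 1.06). All 26 were found in UNT nuclei, beside 99% of the 103 barcodes. Their size ranged from 11 to 110 UNT cells with a median of 31.5, and from 8 to 86 UNT nuclei with a median of 26. Single lineages shifted more than the sum: the share in nuclei was between 0.458 and 2.34 times that in cells, and it was higher in nuclei for 13 of 26. Across the 26 lineages the numbers in nuclei and cells had a Spearman correlation of 0.752.

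The clusters of UNT nuclei, which the selection did not use, followed those of the cells. Most nuclei lay in clusters that UNT cells hardly entered, with 641 of the 919 nuclei of these lineages in cluster 0 and 138 in cluster 11. Of the 123 in clusters 1, 5 and 6, where UNT cells lay, 96 were in cluster 5, 78% (69.7 to 85). For lineages led by cluster 1 in cells it was 23 of 339, 6.78% (4.35 to 10), and for those led by cluster 6 it was 9 of 118, 7.63% (3.55 to 14). Cluster 5 nuclei were found for 22 of the 26 lineages.

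Along the rounds of eribulin the 26 lineages held far less of the barcoded cells after 3 and 4 rounds, while the direction after 1 and 2 rounds depended on the denominator. They held 19.2% of UNT cells, 15.7% (13.8 to 17.8) of ERI1 with 213 cells, 12.6% (10.5 to 15) of ERI2 with 111, 1.76% (1.25 to 2.4) of ERI3 with 39, and 0.0595% (0.0162 to 0.152) of ERI4 with 4 cells. ERI2 held 0.801 times the share of ERI1, with an interval of 0.631 to 1.01 that includes no change, while ERI3 held 7.15-fold less than ERI2 (4.92 to 10.6). In ERI1 the share was 0.82 times that of UNT cells (0.703 to 0.951), and 0.659 times (0.563 to 0.768) where both were counted over the shorter list, on which the lineages held 23.8% (22.4 to 25.4) of UNT cells. ERI2 held 0.657 times the untreated share (0.535 to 0.8), or 0.528 times (0.429 to 0.645) over the shorter list. Of all cells, barcoded or not, the lineages made up 11.4% of ERI1 and 8.83% of ERI2 against 8.81% of UNT cells. By that count ERI1 was 1.3 times as high (1.11 to 1.5) and ERI2 equal (0.816 to 1.22). However, a barcode was called in only 46% of UNT cells, against 72.7% of ERI1 and 70.2% of ERI2 cells. Cells without a call enter this denominator but cannot be counted for a lineage. In the first revision of the authors' calls the ERI1 ratio was 0.956 (0.8 to 1.14). Within run 1 the ERI4 share was 322-fold lower than that of UNT cells (125 to 1185). In nuclei it was 12.7-fold lower (8.31 to 20.3), with 22 of 1495 barcoded ERI4 nuclei, 1.47% (0.924 to 2.22), against 18.6% of UNT nuclei. The fold in nuclei was 54.7 (32.4 to 100) in the first revision, 36.7 (24.1 to 58.8) of all nuclei, 24 (10.2 to 74) in a common range of UMIs and 26.7 (14.5 to 56) without bc14-55-bc30-99383. For the fold of all nuclei, a barcode was called in 17.2% of ERI4 nuclei and 49.8% of UNT nuclei. Cells and nuclei thus gave the same direction and a different size. Of the 22 nuclei, 9 had carried another barcode name in that revision, 8 of them that of a dominant ERI4 lineage, and 4 had none, so 9 kept their name. Among the other barcoded ERI4 nuclei 21.1% kept theirs.

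The number of lineages still seen was also lower after treatment, but not in step with the share. At least 1 cell was called for 16 of 26 lineages in ERI1, beside 56.3% of the 103 barcodes, for 9 in ERI2 (beside 28.2%), for 13 in ERI3 (beside 29.1%), for 2 in ERI4 cells (beside 4.85%) and for 7 in ERI4 nuclei (beside 21.4%). None of the 7 lineages outside the shorter list was seen in ERI1, ERI2 or ERI3. Of the 19 on it, 16 were seen in ERI1 (84.2%, beside 87.9% of the 66 listed barcodes), 9 in ERI2 (47.4%, beside 43.9%) and 13 in ERI3 (68.4%, beside 45.5%). The larger number in ERI3 than in ERI2 came with more cells sampled, and in 569 barcoded cells of each, 8.11 of the 26 lineages would be expected in ERI2 and 5.25 in ERI3. The same draw would show 24.4 of 26 in UNT cells, 14.5 in ERI1 and 0.318 in ERI4. In ERI3, 9 of the 13 lineages stood on 1 cell each.

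The ERI3 cells of these lineages also differed in barcode content. Of the 39, 43.6% had 2 or more detected barcodes, against 9.19% of the other barcoded ERI3 cells, and 33.3% (19.1 to 50.2) had been named doublets in the first revision, against 4.18% (3.38 to 5.11). Among the 9 single cells 6 had several barcodes. With exactly 1 detected barcode required, 7 lineages with 22 cells remained in ERI3, 1.1% of 1998 cells. The part of doublets in the ERI3 count was not tested.

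Under paclitaxel the 26 lineages held a smaller share at every further round. They held 78 of 1792 barcoded PAC1 cells, 4.35% (3.46 to 5.4), 9 of 569 in PAC2, 1.58% (0.726 to 2.98), and 2 of 2286 in PAC3, 0.0875% (0.0106 to 0.316). PAC2 held 2.75-fold less than PAC1 (1.38 to 6.24) and PAC3 18.1-fold less than PAC2 (3.74 to 172), the last from 2 and 9 cells. Seen were 11 of 26 lineages in PAC1, beside 51.5% of the 103 barcodes, 4 in PAC2 (beside 28.2%) and 2 in PAC3 (beside 19.4%). On the shorter list 8 of 19 were seen in PAC1, beside 62.1% of the 66 listed barcodes, 3 in PAC2 (beside 37.9%) and 1 in PAC3 (beside 24.2%). Only bc14-55-bc30-99383 was present in PAC1, PAC2 and PAC3.

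Round for round, the lineages held more of the eribulin than of the paclitaxel cells. The share was 3.61 times as high in ERI1 as in PAC1 (2.77 to 4.74), 7.96 times as high in ERI2 as in PAC2 (4.04 to 17.9), and 20.1 times as high in ERI3 as in PAC3 (5.21 to 172). Counted over barcodes of the shorter list alone, members and denominators both, the ratios were 2.79 (2.12 to 3.7), 6.06 (2.84 to 15.4) and 25.6 (4.34 to 1038.2). The PAC3 side holds 2 cells, or 1 on the shorter list, so the size of the last ratio is barely determined. Of the 26 lineages, 15 had a higher share in ERI1 than in PAC1, 4 a lower one and 7 were in neither. Of the 4 with the lower share 3 were off the shorter list, and the remaining one was bc14-4-bc30-15682. Counted over the shorter list, 13 of 19 had a higher share in ERI1, 3 were in neither and 3 had a lower one, with bc14-49-bc30-30722 (0.59% of ERI1 against 0.634% of PAC1) and bc14-71-bc30-94367 (0.516% against 0.555%) now among the lower. In whole cells, 8 lineages were seen under both drugs, 10 under eribulin alone and 4 under paclitaxel alone. All 4 of these are outside the shorter list, and 1 of them, bc14-37-bc30-87265, also had 1 ERI4 nucleus. The drugs also differed in dose and library, and the labels give no length of recovery after the last paclitaxel round, so these cannot be told apart from the drug.

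The shares were then set against untreated ones lineage by lineage. A higher share means at least 3 cells and at least 2 times the share in untreated cells or nuclei, and a lower share at most 0.5 times, with counts under 3 set to 3. Higher shares were found for 3 of 26 lineages in ERI1, beside 11.7% of the 103 barcodes, for 3 in ERI2 (beside 7.77%), for 1 in ERI3 (beside 3.88%) and for 1 in PAC1 (beside 3.88%). None was higher in ERI4 (beside 2.91%), PAC2 (beside 1.94%), PAC3 (beside 0.971%) or ERI4 nuclei (beside 2.94%). Lower shares were found for 9 of 26 in ERI1 (beside 32%), 11 in ERI2 (beside 31.1%), 23 in ERI3 (beside 88.3%) and all 26 in ERI4 (beside 97.1%). Under paclitaxel 18 were lower in PAC1 (beside 53.4%), 5 in PAC2 (beside 16.5%, where only frequent lineages could be) and 25 in PAC3 (beside 92.2%). In ERI4 nuclei 20 were lower, beside 52%. As shares of the 26, lower lineages were 42.3% in ERI2, 69.2% in PAC1 and 76.9% in ERI4 nuclei. These lay above those of all barcodes of this size, while the other conditions lay closer. The 9 in ERI1, the 11 in ERI2 and the 23 in ERI3 include lineages off the shorter list. In ERI4 nuclei 3 nuclei would be 0.201%, so only lineages frequent in UNT nuclei could be lower. There the summed share was 0.079 times that in UNT nuclei for the 26 lineages (0.0493 to 0.12), with 12 of their 22 nuclei from bc14-55-bc30-99383. Without that lineage it was 0.0374 times (0.0179 to 0.0691). For lineages led by cluster 1, without the 2 dominant ones named below, it was 0.0138 times (0.00553 to 0.0284). For those led by cluster 6 it was 0.0585 times (0.0234 to 0.122), and each of these 2 groups had 7 ERI4 nuclei. Counted over the shorter list, 12 of 19 were lower in ERI1 (63.2%, beside 62.1% of 66), 9 in ERI2 (47.4%, beside 48.5%) and 17 in ERI3 (89.5%, beside 90.9%). There 2 of 19 were higher in ERI1 (beside 10.6%), 3 in ERI2 (beside 10.6%), none in ERI3 (beside 4.55%), 1 in PAC1 (beside 6.06%) and 1 in PAC2 (beside 7.58%).

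Lineages led by the other untreated clusters lost their share in another order. The 58 lineages led by cluster 1, without the dominant bc14-55-bc30-23349 and bc14-6-bc30-93034, held 46.3% of UNT cells, 26.7% of ERI1, 2.83% (1.84 to 4.16) of ERI2, 0.993% of ERI3 and none of 6725 ERI4 cells, where 3 cells would be 0.0446%. Their share in ERI2 was 0.106 times that in ERI1 (0.0678 to 0.159), where the 26 lineages had 0.801 times (0.631 to 1.01). These intervals cover counting error only, and 3 lineages gave 90 of the 111 ERI2 cells of the 26. The 13 lineages led by cluster 6 held 9.89% of UNT cells and 3.39% of ERI1, and had none of 882 ERI2 cells, where 3 cells would be 0.34%. Off the shorter list are 27 of the 58, 3 of the 13 and 7 of the 26, which bears on their UNT and ERI1 shares. Over that list the ERI1 share was 0.618 times that of UNT cells (0.549 to 0.695) for the cluster 1 lineages. It was 0.659 times (0.563 to 0.768) for the 26 lineages and 0.248 times (0.179 to 0.336) for the cluster 6 lineages. In PAC1 the 26 lineages held 0.227 times their untreated share (0.178 to 0.286), the cluster 1 lineages 0.245 times (0.211 to 0.282) and the cluster 6 lineages 0.847 times (0.701 to 1.02). On the shorter list the ERI1 over PAC1 ratio was 2.79 for the 26 lineages, 2.02 (1.67 to 2.44) for those led by cluster 1 and 0.297 (0.208 to 0.417) for those led by cluster 6. The 2 dominant lineages were left out of this comparison with their survival known, as were the 3 of cluster 5, and with all lineages of the same size and lead the order changes: those led by cluster 1 held 39.8% of ERI3 and 78.3% of ERI4.

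With the 3 lineages put back, the 29 lineages led by cluster 5 held 23.2% (22 to 24.4) of UNT cells, 26.6% (24.3 to 29.1) of ERI1, 42.2% (38.9 to 45.5) of ERI2, 7.99% (6.9 to 9.2) of ERI3 and 1.74% (1.44 to 2.08) of ERI4 cells. Their share in ERI2 was 1.58 times that in ERI1 (1.37 to 1.84), where the 26 had 0.801 times. Under paclitaxel the 29 held 6.19% of PAC1, 2.46% of PAC2 and 0.131% of PAC3. Of the 117 ERI4 cells of the 29 lineages, 113 belonged to bc14-39-bc30-41529, and of their 112 ERI4 nuclei 79 did, against 16 UNT cells and 44 UNT nuclei. In ERI2, bc14-22-bc30-18173 had 124 cells and bc14-55-bc30-37135 had 80, and neither was in ERI4 cells.

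Within the 26 lineages survival was uneven. Over ERI1 to ERI4 and PAC1 to PAC3 they had 456 cells, of which bc14-55-bc30-99383 gave 30.9% and the 3 lineages with most gave 51.8%. In ERI2, 90 of 111 cells came from bc14-55-bc30-99383, bc14-1-bc30-96229 and bc14-49-bc30-30722. The 8 lineages most frequent without drug held 10.4% of UNT cells, 4.94% of ERI1, 5.33% of ERI2, 0.316% of ERI3 and no ERI4 cell. The other 18 held 8.77% of UNT cells, 10.8% of ERI1, 7.26% of ERI2, 1.44% of ERI3 and all 4 ERI4 cells. Of their 146 ERI1 cells, bc14-55-bc30-99383 gave 60 and bc14-40-bc30-97696 gave 41. Across the 26 lineages the number of UNT cells had a Spearman correlation of 0.227 with that of ERI1 cells and of 0.379 with that of PAC1 cells. Of the 26, 7 could have been missed in ERI1 for being off the shorter list.

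Lineage bc14-55-bc30-99383 was the one found in all 10 conditions. It had 18 UNT cells, 60 in ERI1, 31 in ERI2, 17 in ERI3 and 3 in ERI4, and 25 in PAC1, 4 in PAC2 and 1 in PAC3. Its share was 4.42% (3.39 to 5.66) of ERI1 against 0.354% (0.21 to 0.559) of UNT cells, 12.5 times as high (7.28 to 22.5), and 9.93 times as high in ERI2 (5.39 to 18.9). In ERI3 the ratio was 2.17 (1.05 to 4.46), and in PAC1 3.94 (2.07 to 7.67). On the shorter list the 4 ratios were 7.93 in ERI1, 6.3 in ERI2, 1.38 in ERI3 (0.666 to 2.83, below the 2-fold mark) and 3.55 in PAC1. In ERI4 cells the share was 0.0446%, 0.126 times the untreated one (0.0238 to 0.432). ERI4 nuclei held 12, 0.803% (0.415 to 1.4), against 36 UNT nuclei, 0.729% (0.511 to 1.01). In whole cells the share of this lineage was thus highest after 1 round of either drug and smaller at each further one. The intervals of rounds 1 and 2 overlapped, with 3.51% (2.4 to 4.95) in ERI2. PAC1 gave 1.4% (0.905 to 2.05) and PAC2 0.703% (0.192 to 1.79).

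Lineage bc14-1-bc30-96229 was most frequent a round later. It had 15 UNT cells, 2 in ERI1, 30 in ERI2, 8 in ERI3 and 1 in ERI4, and no cell in PAC1, PAC2 or PAC3. The ERI2 share was 3.4% (2.31 to 4.82) against 0.295% (0.165 to 0.486) of UNT cells, 11.5 times as high (6.01 to 23.1) and 7.31 times on the shorter list. In ERI1 it was 0.147% (0.0179 to 0.532), with a ratio of 0.5 (0.0555 to 2.15). ERI4 nuclei held 2, against 14 UNT nuclei.

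Lineage bc14-49-bc30-30722 had the same late peak from a larger start. It had 49 UNT cells, 8 in ERI1, 29 in ERI2, 3 in ERI3 and none in ERI4, and 8 in PAC1 and none in PAC2 or PAC3. Its ERI2 share of 3.29% (2.21 to 4.69) was 3.41 times that of UNT cells, 0.963% (2.08 to 5.51 for the ratio), or 2.16 times on the shorter list (1.32 to 3.49). In UNT nuclei it had 28, and in ERI4 nuclei none.

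A pair of lineages stood high after 1 round only. Lineage bc14-40-bc30-97696 had 19 UNT cells, 41 in ERI1, none in ERI2, 1 in ERI3 and none in ERI4, and 3 in PAC1, 2 in PAC2 and none in PAC3. Its ERI1 share of 3.02% (2.18 to 4.08) was 8.1 times that of UNT cells, 0.374% (4.59 to 14.8 for the ratio), and 5.13 times on the shorter list (2.91 to 9.36). In ERI2, 3 cells would be 0.34%, so its share there was below that in ERI1. Lineage bc14-6-bc30-73144 had 21 UNT cells, 13 in ERI1 and 1 in ERI3, and no cell in ERI2, ERI4 or any paclitaxel condition. Its ERI1 ratio was 2.32 (1.07 to 4.86), and on the shorter list 1.47 (0.677 to 3.08), which is no longer a higher share.

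Of the lineages largest without drug, those given here held less after treatment. Not all did so at every round. Over all barcodes, bc14-49-bc30-30722 had a ratio to UNT cells of 3.41 in ERI2. That of bc14-47-bc30-43673, given next, was 1.38 in ERI1. Lineage bc14-95-bc30-65716 had 110 UNT cells, 16 in ERI1, 3 in ERI2, 1 in ERI3 and none in ERI4, and 3 in PAC1, 1 in PAC2 and none in PAC3. Its ERI1 share was 0.546 times that of UNT cells (0.301 to 0.926), or 0.346 times (0.191 to 0.587) over the shorter list, where it counted as lower. Its ERI4 share was at least 48.5-fold lower, with 3 cells taken as the floor of the ERI4 library. ERI4 nuclei held 2, against 86 UNT nuclei. Lineage bc14-53-bc30-85524 had 84 UNT cells and 8 in ERI1, and no cell in any other treated library. Its shares were at least 12.2-fold lower in ERI3, 37-fold lower in ERI4 and 12.6-fold lower in PAC3 than in UNT cells. Lineage bc14-71-bc30-53519 did likewise, with 55 UNT cells, 75 UNT nuclei and 9 ERI1 cells.

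Lineage bc14-47-bc30-43673 had 60 UNT cells, 22 in ERI1, 5 in ERI2, 1 in ERI3 and none in ERI4, and 12 in PAC1 and none in PAC2 or PAC3. It had 1 ERI4 nucleus, against 60 UNT nuclei. The ratio was 1.38 in ERI1 (0.803 to 2.28) and 0.568 in PAC1 (0.278 to 1.07), and both intervals include no change. Over the shorter list it was 0.872 in ERI1 (0.509 to 1.44), on the other side of 1, and 0.511 in PAC1 (0.25 to 0.961), an interval below 1. Lineage bc14-4-bc30-15682 had the other order between the drugs. It had 72 UNT cells, 2 in ERI1, 1 in ERI2, 1 in ERI3 and 8 in PAC1. Its share was 0.147% (0.0179 to 0.532) of ERI1 and 0.446% (0.193 to 0.878) of PAC1, and these intervals overlap. It had 1 ERI4 nucleus, against 50 UNT nuclei. Lineage bc14-75-bc30-79440 had 49 UNT cells, 2 in ERI1, 9 in ERI2, 1 in ERI3, none in ERI4 and none under paclitaxel. It had 3 ERI4 nuclei, against 59 UNT nuclei. Its ERI2 ratio was 1.06 (0.458 to 2.18) and its ERI1 ratio 0.153 (0.018 to 0.583), the same order of rounds as bc14-1-bc30-96229. Over the shorter list these were 0.672 in ERI2 (0.29 to 1.38) and 0.0971 in ERI1 (0.0114 to 0.37), so the ERI2 share was then below the untreated one. Lineage bc14-2-bc30-62822, off the shorter list, had 50 UNT cells, 3 in PAC1 and 1 in PAC3.

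The other 14 lineages were small in treated cells. Lineage bc14-90-bc30-13082 had the smallest lead of cluster 5, with 6 of its 11 UNT cells there and 4 in the next cluster, and was seen in 1 ERI3 cell. The remaining 13 had between 14 and 46 UNT cells, 7.12% of UNT cells together, and no more than 8 cells in any treated condition. They held 2.21% of ERI1 with 30 cells of 5 lineages, 0.34% of ERI2 with 3 cells, 0.181% of ERI3 with 4 and no ERI4 cell, and 0.893% of PAC1 with 16 cells, 0.351% of PAC2 with 2 and no PAC3 cell. Of the 7 lineages off the shorter list, all but bc14-2-bc30-62822 are among these 13. Their summed shares in ERI1, ERI2 and ERI3 thus cannot be read as loss alone. In no treated library were bc14-28-bc30-22697, bc14-79-bc30-71996, bc14-71-bc30-4586 and bc14-11-bc30-12158, which held 118 UNT cells (2.32%) and 118 UNT nuclei (2.39%). Of these only bc14-28-bc30-22697, with 46 UNT cells and 62 UNT nuclei, is on the shorter list. Its share was at least 6.68-fold lower in ERI3, 20.3-fold lower in ERI4 and 6.89-fold lower in PAC3 than in UNT cells.

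Apart from PAC1, few treated cells of these lineages lay in cluster 5, with 1 in ERI1 and none in ERI2. There were 3 in ERI3 and 2 of the 4 in ERI4, all of bc14-55-bc30-99383. In ERI1 cluster 7 held 199 of 213 of their cells, 93.4% (89.2 to 96.4), against 91.7% (89.9 to 93.2) of the other barcoded cells. ERI2 gave 108 of 111, 97.3% (92.3 to 99.4), against 89.6% (87.3 to 91.7). In ERI3 22 of 39 were in cluster 2, 56.4% (39.6 to 72.2) against 46.5% (44.4 to 48.6) of the others, and 7 were still in cluster 7, 17.9% (7.54 to 33.5) against 2.71% (2.07 to 3.48). None of the 39 lay in cluster 8, which held 28.3% of the others. The others include the 2 dominant lineages, which were not set apart here. Lineages led by cluster 1 held 39.8% of barcoded ERI3 cells with these 2 and 0.993% without them. Cluster 7 held 90.7% of all ERI1 cells and 87.7% of all ERI2 cells, barcoded or not.

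PAC1 was where cluster 5 stayed in view. It held 20 of the 78 PAC1 cells of these lineages, 25.6% (16.4 to 36.8), against 1.23% (0.76 to 1.87) of the other barcoded PAC1 cells, and cluster 6 held 39, 50% (38.5 to 61.5), against 35.7% (33.4 to 38). The 20 cells came from 10 lineages with 1 to 4 cells each. They made up 48.8% (32.9 to 64.9) of the 41 barcoded PAC1 cells in cluster 5, and 7 more belonged to lineages set aside. Cluster 9, which held 25.4% of the other barcoded PAC1 cells, held 1 cell of the 26 lineages. In PAC2, 7 of 9 cells were in cluster 7, and in PAC3 both were.

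The 4 ERI4 cells did not share a cluster. Lineage bc14-55-bc30-99383 had 2 cells in cluster 5, with pseudotimes of 1.28 and 3.84, and 1 in cluster 12 with 18.4. The 2 cells were the only barcoded ERI4 cells in cluster 5, and each had several detected barcodes, 2 in one and 4 in the other. The 1 cell of bc14-1-bc30-96229 was in cluster 7 at 13.6. The median pseudotime, the authors' ordering of all cells with untreated cells as its root, was 28.7 in the other barcoded ERI4 cells and 2.46 in UNT cells of the 26 lineages. The libraries of run 1 shared 26 cell barcodes, and none of the 4 was among them. Of the 22 ERI4 nuclei, 14 were in cluster 10, 63.6% (40.7 to 82.8), against 41.7% (39.2 to 44.2) of the other barcoded nuclei, and 1 was in cluster 4, which held 31.1% of the others.

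Other measures of these lineages' cells are given beside those of the other barcoded cells of the condition. In ERI1, 23.9% (18.4 to 30.3) of the lineages' cells were called S phase, against 25.5% (23 to 28.2) of the other barcoded cells, and 46% (39.2 to 53) were called G2M, against 42.7% (39.8 to 45.6). Median pseudotime was 13.5 against 13.6 in ERI1, 13.6 against 13.9 in ERI2, 22 against 22.5 in ERI3, 17.1 against 17.7 in PAC1, 25.5 against 24.1 in ERI4 nuclei and 11.7 against 13.9 in UNT nuclei. UNT cells, whose clusters chose the lineages, had medians of 2.46 against 8.22. The lowest UNT medians of single lineages were those of bc14-40-bc30-97696 with 0.713 and bc14-55-bc30-99383 with 0.863, from 19 and 18 cells, in a range up to 3.97. Depth differed in the same comparisons, with 17355 UMIs against 21684.5 in UNT cells, 18515 against 17198 in ERI1, 15150 against 18429 in ERI2 and 6387.5 against 3045 in ERI4 nuclei.

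Barcode calls of UNT cells also changed between revisions. Of the 975 UNT cells of these lineages 56.7% (53.5 to 59.9) had been named doublets in the first revision, against 49.4% (47.8 to 50.9) of the others, and 88.2% had 2 or more detected barcodes, against 87.3%. In UNT nuclei 18.5% had 2 or more, against 22.7%, and in ERI1 25.4%, against 25.1%. The first revision gave none of the 975 a different barcode.

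Few lineages lay just above the threshold of 10 UNT cells and more just below it. No lineage led by cluster 5 had exactly 10, the smallest inside were bc14-90-bc30-13082 with 11 and bc14-95-bc30-81257 with 14, and just outside were 4 with 9 and 4 with 8. Of these 8, chosen for naming after their values were seen, bc14-54-bc30-69483 had 18 ERI1, 4 ERI2, 6 PAC1 and 1 PAC3 cells, and bc14-13-bc30-72181 had 3 ERI2 and 2 ERI3 cells. One more had a single PAC2 cell, and 5 had none in any treated library.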

How the data were processed

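Values come from the authors' deposited table of 51785 cells in 3 runs and their lists of barcode sequences. The deposited counts are UMIs, genes and detected barcodes per cell, the deposited percent values are mitochondrial and ribosomal shares, and the deposited score columns are phase scores and pseudotime; clusters and barcode calls were also taken as the authors deposited them. Per the submitters' processing notes and the series' design text, reads were counted on mm10 with Cell Ranger 3.1.0, 4.0.0 and Cell Ranger ARC 1.0.0, clustered with Seurat 3.1.4 and ordered with Monocle3 0.2.1. How barcodes were called is not given in the sources used here.

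The latest barcode call was used. All 4935 calls in UNT nuclei are spelled without the hyphens before the numbers and were rewritten; without that no lineage matches between nuclei and cells. Shares are of cells with 1 called barcode, with exact 95% intervals, a floor of 3 cells for a count of 0, and exact conditional intervals for ratios (Python 3.11.15, pandas 2.3.3, SciPy 1.17.1). Interval coverage was tested on simulated data. Expected numbers in 569 cells use the hypergeometric formula. One was subtracted from detected barcodes in nuclei, where each has at least 1. Phase was G1 where both scores were at or below 0, otherwise that of the higher score. In all, 179 cells outside the stated filter were kept.

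The lineages, the comparisons and the dominant lineages set aside were chosen with earlier results of these data known. Named singly are the 8 lineages most frequent in UNT cells, those with a higher share or at least 10 cells in a treated whole-cell condition, and the one with the smallest lead of cluster 5. Any other name was chosen after its values were seen, as was the comparison over the shorter list. Alternatives changed the size threshold, the barcode call, the denominator, the UMI range and the lineages included. Gene expression and embedding coordinates were not analysed here.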

Additional observations from a re-analysis of the deposited data

Results flagged for a closer look

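Lineage bc14-55-bc30-99383 moved in opposite directions in cells and in nuclei. The ERI4 minus UNT difference in its share was -0.309 percentage points in cells, with 3 of 6725 barcoded ERI4 cells against 18 of 5087 UNT cells. In nuclei the difference was 0.0732 percentage points, with 12 of 1495 barcoded ERI4 nuclei against 36 of 4935 UNT nuclei, a ratio of 1.1 (0.521 to 2.16) that includes no change. The difference between cells and nuclei was not tested, since each is 1 library.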

How the results depend on the processing

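Of 240 values recomputed under 12 alternatives (20 each), 182 stayed within the 95% interval of the reported share, or within 1.5 times the reported number of lineages, and 58 did not. No value moved when cluster 13 and cells outside the stated filter were left out, or when the tied lineage bc14-29-bc30-67687 was added. Requiring over 50% of the untreated cells in cluster 5 took out no lineage, since all 26 met it. Its 20 values could not move and are counted among the 182. With at least 20 UNT cells required, 18 lineages remained, and they held 7.45% of ERI1, 5.67% of ERI2, 0.542% of ERI3, 0% of ERI4 (0 lineages), 2.79% of PAC1, 0.527% of PAC2 (2 lineages), 0.535% of ERI4 nuclei, 16.7% of UNT cells and 15% of UNT nuclei, with 1 lineage seen in PAC3. With all 5 lineages set aside put back, the shares were 30.5% of ERI1, 53.1% of ERI2 (14 lineages), 11.8% of ERI3, 2.42% of ERI4 (4 lineages), 8.48% of PAC1, 5.62% of PAC2 (8 lineages), 8.76% of ERI4 nuclei, 23.2% of UNT cells and 22.9% of UNT nuclei, with 5 lineages in PAC3. Without bc14-55-bc30-99383 they were 11.3% of ERI1, 9.07% of ERI2, 0.993% of ERI3, 0.0149% of ERI4 (1 lineage), 2.96% of PAC1 and 0.669% of ERI4 nuclei, with 1 lineage in PAC3. Without bc14-95-bc30-65716 they were 17% of UNT cells and 16.9% of UNT nuclei. Over barcodes of the shorter list they were 5.63% of PAC1, 23.8% of UNT cells and 23.5% of UNT nuclei, with 1 lineage in PAC3. Of all cells, barcoded or not, the lineages were 11.4% of ERI1, 8.83% of ERI2, 2.66% of PAC1, 0.253% of ERI4 nuclei, 8.81% of UNT cells and 9.27% of UNT nuclei. With exactly 1 detected barcode they were 1.1% of ERI3 (7 lineages) and 18% of UNT cells, with 1 lineage in ERI4 and 1 in PAC3. The first revision of the calls gave 1.22% of ERI3, 0.33% of ERI4 nuclei and 16.7% of UNT cells, with 1 lineage in PAC3. In a range of UMIs common to each run they were 0.821% of ERI4 nuclei (3 lineages), with 2 lineages in PAC2 and 1 in PAC3. The ERI1 over UNT ratio of 0.82 was 1.3 of all cells, on the other side of 1, with a barcode called in 72.7% of ERI1 and 46% of UNT cells. The ERI2 over ERI1 ratio of 0.801 was 0.728 in the first revision, 0.773 of all cells, 0.735 with exactly 1 detected barcode and 1.06 in a common range of UMIs, and the first 3 intervals lay below 1. Except where an alternative takes lineages or cells out or adds them by its own construction, the cause was not tested. The alternatives with the tied lineage, without bc14-55-bc30-99383 and over the shorter list were chosen after seeing the data.

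With 1 library a condition, the intervals cover counting error and not the spread between cultures. ERI4, PAC2 and PAC3 hold 4, 9 and 2 cells of these lineages, so their sizes are poorly set. Absence from ERI1, ERI2 and ERI3 cannot be read for the 7 lineages off the shorter list. No paired analysis was possible because no test was made and each condition has 1 library.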
